A study of Mus musculus with 8 samples.

Results

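The nuclear genes for the subunits of oxidative phosphorylation were described in RNA-seq of bulk tissue from mouse brains. They were taken by symbol from the deposited table (Nduf with a, b, c, s or v and a digit for complex I, Sdha to Sdhd for complex II, Uqcr for complex III, Cox4 to Cox8 for complex IV and Atp5 for complex V), which gave 84 of 24343 genes. Of these, 37 belong to complex I, 4 to complex II, 8 to complex III, 18 to complex IV and 17 to complex V by their symbols. Choosing them used no measured value.

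The tissue was the entire brain of 3 mice of the strain C57BL/6NCrl, aged 56–62 days, for which the labels name no engineered allele or agent, so that all formed a single condition. Mice 1 and 2 each gave 3 libraries and mouse 3 gave 2, and neither the sex of the mice nor the meaning of the library numbers was given in the labels. Libraries of 1 mouse are not independent animals, so every SD between mice has n = 3 and every test between the mice, which takes the libraries as replicates, describes these 3 mice only. Levels are FPKM, the fragments of a gene scaled by the length of its transcript and by the size of the library, so that genes can be compared with each other per length.

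Oxidative phosphorylation takes place at the inner membrane of mitochondria. Complexes I and II pass electrons from NADH and succinate to ubiquinone, complex III hands them to cytochrome c, complex IV reduces oxygen, and complex V, the ATP synthase, uses the resulting proton gradient to make ATP. Mitochondrial DNA encodes the catalytic core of complex IV and some subunits of complexes I, III and V, whereas the genes described here lie in the nucleus and their products are imported. Neurons depend on this pathway to restore ion gradients after firing. Some complex IV subunits have a second gene that is used in heart, skeletal muscle, testis or lung in place of the general form.

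The brain origin of the libraries was checked on marker genes. All 3 neuronal and 3 astrocyte markers and the oligodendrocyte markers Mbp and Mog were above 1 FPKM, and the neuronal sum (Snap25, Syt1 and Rbfox3) ranged from 1152 to 1466 FPKM. Of 7 skeletal muscle markers only Acta1 reached a mean of 1 FPKM, at 12.6 FPKM in mouse 2 (library 1) and 1.66–3.15 FPKM in the other libraries. None of 4 testis markers reached 1 FPKM, and Prm1 and Tnp1 were listed at 0 in every library. Depth on transcripts was 1.31–2.02 gigabases a library. The summed FPKM of all genes was 295541–345572 in the libraries of mice 1 and 2 and 384885 and 409889 in those of mouse 3, so that the libraries of mouse 3 stood apart in scale before any gene was compared.

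The subunit genes were among the most abundant messages of the brain. A mean of at least 100 FPKM was reached by 58 of the 84 genes, which made up 10.3% of the 564 genes at that level. Another 17 genes lay between 10 and 100 FPKM and 8 between 1 and 10 FPKM, whereas Cox8c, the testis form of subunit VIII, was listed at 0 in every library. The 84 genes took 4.85% ± 1.18 (SD, n = 3) of the summed FPKM. By library this share was 4.08%, 4.47% and 4.34% in mouse 1, 3.52%, 4.13% and 4.50% in mouse 2, and 5.60% and 6.79% in mouse 3, which were the 2 highest values. The median of the 84 genes was 144 ± 43.9 FPKM, against 8.71 ± 0.183 FPKM over the 13001 genes whose mean reached 1 FPKM, which include 83 of the 84. Their messages were also short, with a median length of 649 nt against 2845 nt. Fewer cells of a type and less RNA per cell cannot be told apart in bulk tissue, and this holds for each level given here.

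**Figure D1:**
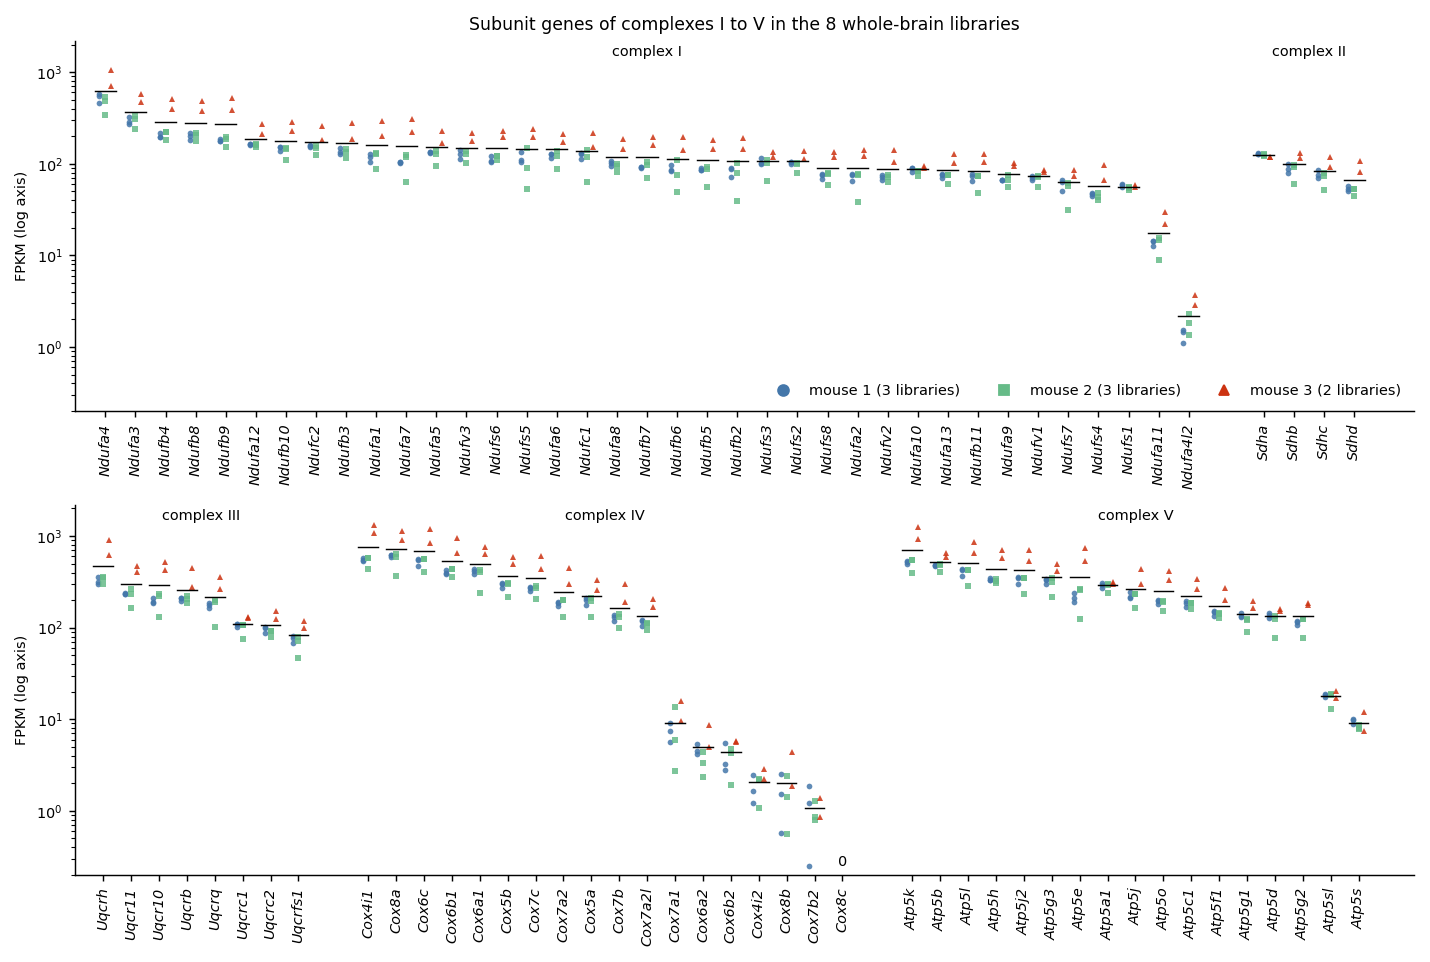
FPKM (log axis) of each of the 84 genes in the 8 libraries, grouped by complex and ordered by mean level. Symbols mark the mouse, and each horizontal line is the mean of the 3 mouse means. The 58 genes at or above 100 FPKM fill the upper part, the tissue forms of complex IV and Ndufa4l2 lie below 20 FPKM, and the libraries of mouse 3 lie above the others for most genes.

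Promoter sequences are shown because the transcription factors NRF1 and GABP (a factor of the ETS family) are known to act on many genes of this pathway. Promoters from RefSeq (GRCm38.p6, 250 bases before to 50 after a gene's start) were found for 69 of the 84 genes, with 75 starts in all. The NRF1 motif GCGCANGCG was present on either strand in 21 of these 75 promoters (28.0%), against 12.7% of 12703 promoters of the genes tested and 6.25% of all 32851 promoters. The ETS motif CCGGAAG was in 21.3%, against 16.0% and 8.86%, and the YY1 motif AAGATGGC was in 16.0%, against 4.25% and 2.75%. The TATAAA motif was in 10.7%, against 7.16% and 13.6%. Both strands were searched, and overlapping matches were counted once. The median GC content was 57.3% for these genes, 61.0% for the genes tested and 52.7% for all promoters. A match is a description of the letters and not a measured binding site, and no binding was measured here.

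In each complex, the gene with the highest mean FPKM among those with an NRF1 match has the following sequence at the match nearest its start, with 10 bases on each side and the motif in capitals. The positions are those of GRCm38.p6 and all sequences are read 5′ to 3′ on the strand of the gene.
Ndufb4 (chr16:37654372-37654400, minus strand): cctcatatccGCGCAGGCGcagatgtgcg
Sdha (chr13:74350232-74350260, minus strand): gcgactcggtGCGCAAGCGcagtctgtcg
Uqcr11 (chr10:80406808-80406836, minus strand): atcgccttcaCGCATGCGCtatacgtctg
Cox6a1 (chr5:115349057-115349085, minus strand): cggataaagtGCGCAGGCGctggagttcc
Atp5k (chr5:108434431-108434459, minus strand): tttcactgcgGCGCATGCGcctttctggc
Sdha held 3 such matches within its 300 bases and Ndufb4 held 3, whereas the promoters of Uqcrh and Uqcr10 held none. In Uqcr11 the capitals are the motif as read from the opposite strand.

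Complex V had the highest median level and complex II the lowest. The median over the genes of a complex, averaged over the mice, was 265 ± 90.4 FPKM for complex V, 235 ± 90.0 FPKM for complex III, 192 ± 67.6 FPKM for complex IV, 121 ± 41.2 FPKM for complex I and 90.0 ± 19.6 FPKM for complex II. These SDs overlap because mouse 3 was high throughout, so the complexes were also compared within each mouse. Complex V over complex I was 2.08, 2.29 and 2.19 in mice 1, 2 and 3, and complex III over complex I was 1.81, 1.94 and 2.01. Complex II over complex I was 0.805, 0.813 and 0.666. The order of the 5 medians was the same in every mouse, but no test was made, since 3 mice are too few for an exact test to pass the threshold. Neighbours in that order were close, with complex V over complex III at 1.15, 1.18 and 1.09.

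The place of complex IV depended on which genes were counted. Its 18 genes include 7 tissue forms of low level and Cox7a2l, which codes for a factor that joins complexes into supercomplexes and not for a general subunit. With tissue forms and genes that code for no subunit left out of all complexes, the 10 general subunits of complex IV had a median of 428 ± 167 FPKM, the highest of the 5 complexes. The ratio to complex V was then 1.56, 1.47 and 1.66 in the 3 mice, and the ratio to complex III was 1.86, 1.76 and 1.83. All 10 of these genes were above 100 FPKM, from Cox7b at 166 to Cox4i1 at 762 FPKM.

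**Figure D2:**
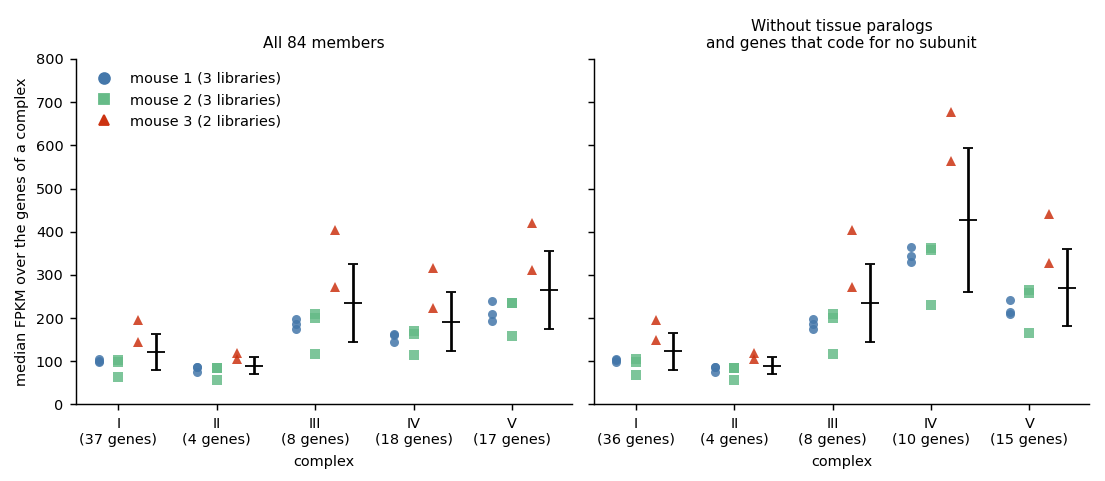
Median FPKM over the genes of each complex in each of the 8 libraries, for all 84 genes (left) and without tissue forms and genes that code for no subunit (right). Symbols mark the mouse, and the black bars are the mean and SD of the 3 mouse values. Complex IV moves from 192 FPKM on the left to 428 FPKM on the right, while complex II stays at 90.0 FPKM.

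In complex I, small accessory subunits were the most abundant. Ndufa4 had 464, 571 and 549 FPKM in the libraries of mouse 1, 339, 480.3 and 531 FPKM in mouse 2 and 710.1 and 1060.0 FPKM in mouse 3. Its product carries a complex I name but is now counted with complex IV. Ndufa3, an accessory subunit of the membrane arm, had 269, 286 and 323 FPKM in mouse 1, 237, 333 and 312 FPKM in mouse 2 and 468 and 581 FPKM in mouse 3. Ndufb4, another accessory subunit of that arm, had 195, 218 and 195 FPKM, then 183, 224 and 222 FPKM, and 392 and 506 FPKM in the same order. For all 3 genes both libraries of mouse 3 lay above the other 6. The 7 nuclear core subunits, which bind the flavin, the iron-sulfur clusters and ubiquinone, had a median of 87.5 ± 30.3 FPKM, and they ranged from 56.4 FPKM (Ndufs1) to 108 FPKM (Ndufs3). The 29 accessory subunits had a median of 140.3 ± 49.5 FPKM. The core messages were longer, with a median length of 1540 nt against 560 nt.

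Ndufa11, an accessory subunit, was the lowest general subunit of all at 17.6 ± 7.18 FPKM. The deposited table gives its transcript a length of 2661 nt, whereas the GENCODE vM21 transcript that is matched to the same RefSeq record is 545 nt long, a ratio of 4.88. Since FPKM divides by length, its level cannot be set beside the others without that difference in mind. Among the 84 genes, the length in the table was within 1.5 times that of the closest matched GENCODE transcript for 75. It was longer for Ndufa11 only, and shorter for 8 (Atp5g1, Atp5j2, Cox5b, Ndufa10, Ndufa5, Ndufb4, Sdhc and Uqcrq). The levels of these 8 carry the same limit, and the lowest ratio was that of Atp5g1 (0.169, 798 nt against 4715 nt).

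In complex II all 4 subunits were within a narrow range of levels. Sdha, the flavoprotein that oxidizes succinate, had 128, 131 and 127 FPKM in mouse 1, 121, 127 and 126 FPKM in mouse 2 and 119 and 118 FPKM in mouse 3. It was the only subunit of the 4 whose mouse 3 libraries did not lie above the rest. Both lay below every library of mice 1 and 2, by little. Sdhb, the iron-sulfur subunit, had 78.3, 100.4 and 88.3 FPKM, 60.0, 96.2 and 91.5 FPKM, and 116 and 130.4 FPKM. Of the membrane anchors, Sdhc had 70.2, 74.6 and 85.1 FPKM, 51.9, 72.6 and 78.3 FPKM, and 92.6 and 119.8 FPKM. Sdhd had 50.1, 56.6 and 53.3 FPKM, 44.9, 52.7 and 53.3 FPKM, and 81.5 and 107 FPKM. For these 3 genes mouse 3 was highest and library 1 of mouse 2 was lowest.

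In complex III the small subunits also exceeded the core. Uqcrh, the hinge protein that binds cytochrome c1, had 299.5, 362 and 315 FPKM in mouse 1, 302, 346 and 357 FPKM in mouse 2 and 623 and 908 FPKM in mouse 3. Uqcr11, a small accessory subunit, had 238, 234 and 234 FPKM, 166, 235 and 267 FPKM, and 408 and 470.1 FPKM. Uqcr10, another such subunit, had 188, 209.8 and 193 FPKM, 131, 231 and 220.1 FPKM, and 428 and 523 FPKM. In all 3 both libraries of mouse 3 were the highest. The 5 accessory genes had a median of 284 ± 135 FPKM, and the 3 others, the core proteins Uqcrc1 and Uqcrc2 and the Rieske iron-sulfur protein Uqcrfs1, had a median of 104 ± 21.3 FPKM. As in complex I the core messages were longer, with a median length of 1656 nt against 499 nt. Spearman's rho between transcript length and mean FPKM was -0.44 over the 83 subunit genes tested. Level and length are thus not separated in these comparisons.

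In complex IV, Cox4i1, the general form of subunit IV, was the most abundant of the 84 genes and ranked 26 of 24343. It had 529, 573 and 547 FPKM in mouse 1, 433, 577 and 576 FPKM in mouse 2 and 1083 and 1334 FPKM in mouse 3. Cox8a, the general form of the small subunit VIII, had 595, 618 and 619 FPKM, 368, 584 and 636 FPKM, and 915 and 1138 FPKM. Cox6c, a small membrane subunit, had 471, 550.0 and 559 FPKM, 404, 559 and 558 FPKM, and 839.8 and 1180.2 FPKM. Each of these 3 genes was higher in both libraries of mouse 3 than in any other.

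In complex V, levels differed between parts of the enzyme. Atp5k, the small membrane subunit e, had 501, 525 and 537 FPKM in mouse 1, 392, 552 and 546 FPKM in mouse 2 and 938 and 1270.4 FPKM in mouse 3. Atp5b, the catalytic beta subunit, had 466, 489 and 488 FPKM, 401, 481 and 499 FPKM, and 598 and 651 FPKM. Atp5l, the membrane subunit g, had 367, 439 and 421 FPKM, 285, 427 and 421 FPKM, and 649 and 864 FPKM. Mouse 3 was highest for each, with the smallest gap for Atp5b. The median was 514 ± 210.2 FPKM for the 3 other membrane subunits (Atp5k, Atp5l and Atp5j2), 258 ± 98.6 FPKM for the 4 of the peripheral stalk, 245 ± 53.2 FPKM for the 5 of the catalytic head and 143 ± 35.1 FPKM for the 3 genes of the c ring. The median lengths of these parts were 477, 707.5, 1165 and 714 nt in the same order. Atp5s (9.19 ± 0.917 FPKM) and Atp5sl (17.9 ± 1.08 FPKM) carry the prefix but code for no subunit of the purified enzyme.

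The general forms made up nearly all of the message in each pair of paralogs. Of the forms used in heart and skeletal muscle, Cox6a2 was 1.00% ± 0.0985 of the summed FPKM with Cox6a1, Cox7a1 was 2.33% ± 0.133 of that with Cox7a2 and Cox7a2l, and Cox8b was 0.284% ± 0.0344 of that with Cox8a and Cox8c. Of the forms used in testis, Cox6b2 was 0.846% ± 0.114, Cox7b2 was 0.712% ± 0.179, and Cox8c was listed at 0. Cox4i2, a form used in lung and in oxygen sensing, was 0.298% ± 0.0771 of the FPKM of the Cox4 pair. Ndufa4l2, a paralog that hypoxia induces in several cell types, was 0.347% ± 0.0765 of that with Ndufa4. 

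The general partners of these forms were abundant in every library. Cox6a1 had 387, 438 and 419 FPKM in mouse 1, 241, 405 and 423 FPKM in mouse 2 and 639 and 757 FPKM in mouse 3. Cox6b1 had 387, 424 and 391 FPKM, 357, 442 and 434 FPKM, and 657 and 962 FPKM. Both code for subunits that lie at the edge of the enzyme, and both were highest in mouse 3. Cox7a2 had 172, 186 and 192 FPKM, 132, 199.8 and 201 FPKM, and 299.9 and 443 FPKM. Cox7b had 117, 138 and 129.8 FPKM, 98.5, 131 and 141 FPKM, and 191 and 299 FPKM. Again both libraries of mouse 3 lay above the other 6, and the means were 489.7 ± 183 FPKM for Cox6a1, 540.2 ± 233 FPKM for Cox6b1, 244 ± 110.5 FPKM for Cox7a2 and 166 ± 69.0 FPKM for Cox7b.

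Among the tissue forms, Cox7a1 was the highest, with 5.66, 9.0 and 7.43 FPKM in mouse 1, 2.75, 5.98 and 13.6 FPKM in mouse 2 and 9.48 and 15.8 FPKM in mouse 3. Cox6a2 followed with 4.47, 5.44 and 4.14 FPKM, 2.34, 3.30 and 4.39 FPKM, and 5.03 and 8.72 FPKM. Cox6b2 had 3.22, 2.78 and 5.52 FPKM, 1.91, 4.75 and 4.24 FPKM, and 5.82 and 5.59 FPKM. The libraries of a mouse overlapped with those of the others for Cox7a1 and Cox6a2, and for Cox6b2 mouse 3 was above the rest by little. The means were 9.15 ± 3.01, 4.97 ± 1.78 and 4.39 ± 1.14 FPKM, and Cox6a2 and Cox6b2 lay within an SD of each other. Acta1, the muscle actin, was highest in library 1 of mouse 2, where Cox7a1 and Cox6a2 were at their lowest. That library was the lowest of the 8 for 74 of 83 subunit genes, beside 4788 of 13001 genes. Whether muscle tissue has a part in these levels was not tested.

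The lowest tissue forms were close to the limit of what the table resolves. Ndufa4l2 had 1.44, 1.11 and 1.53 FPKM in mouse 1, 1.34, 2.31 and 1.83 FPKM in mouse 2 and 2.86 and 3.73 FPKM in mouse 3. Cox4i2 had 1.23, 2.48 and 1.67 FPKM, 2.19, 2.24 and 1.08 FPKM, and 2.24 and 2.88 FPKM. Both had a deposited lower confidence bound above 0 in all 8 libraries. Cox8b had 0.577, 1.53 and 2.52 FPKM, 1.40, 0.555 and 2.40 FPKM, and 4.34 and 1.89 FPKM. Cox7b2 had 0.248, 1.22 and 1.89 FPKM, 0.792, 1.28 and 0.859 FPKM, and 1.40 and 0.864 FPKM. The lower bound was above 0 in only 3 of 8 libraries for Cox8b and 2 of 8 for Cox7b2, so that these 2 genes were at the edge of detection. Their means lay within an SD of each other for Ndufa4l2 (2.16 ± 1.01 FPKM), Cox4i2 (2.06 ± 0.433 FPKM) and Cox8b (2.04 ± 0.935 FPKM). Cox4i2 and Ndufa4l2 are known from pericytes, and the summed level of 6 pericyte markers was 54.9–70.4 FPKM in mice 1 and 2 and 84.0 and 95.8 FPKM in mouse 3. The markers did not move together. Rgs5 (log2 difference 0.79) and Kcnj8 (0.48) were called higher in mouse 3. Vtn (0.15), Higd1b (0.55), Abcc9 (-0.08) and Pdgfrb (-0.06) were not called. The part of pericytes in the levels of Cox4i2 and Ndufa4l2 was not tested.

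**Figure D3:**
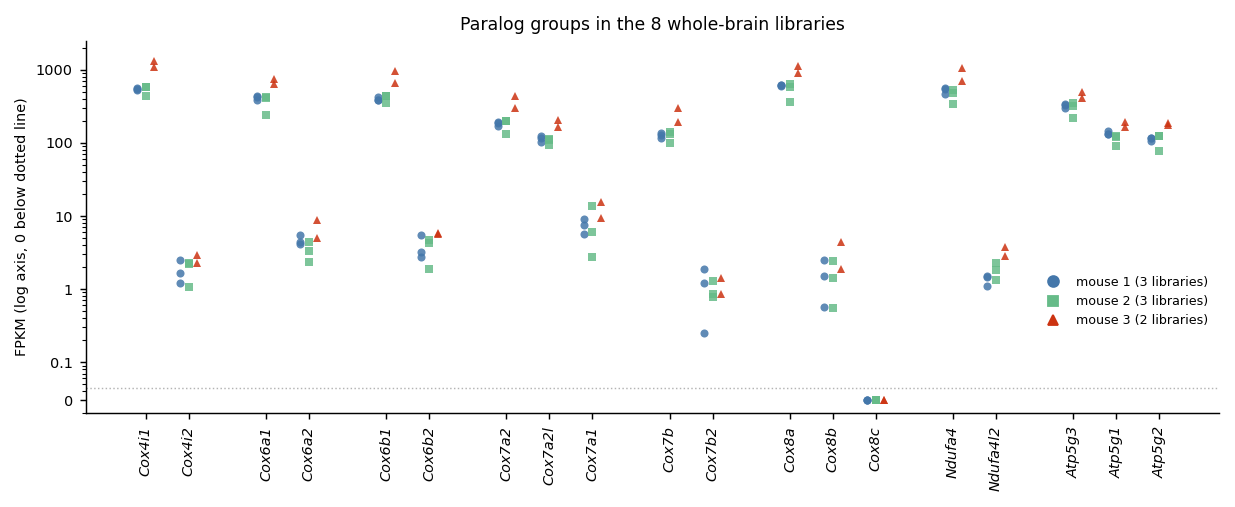
FPKM (log axis, with 0 drawn below the dotted line) of the genes of each paralog group in the 8 libraries, with symbols for the mouse. The general forms of the Cox and Ndufa4 groups lie above 90 FPKM and the tissue forms below 20 FPKM, whereas the 3 Atp5g genes, at 76.5 to 497 FPKM, are less far apart.

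Cox7a2l was the exception among the complex IV paralogs. It had 104, 118 and 122 FPKM in mouse 1, 93.7, 109 and 113 FPKM in mouse 2 and 167 and 205 FPKM in mouse 3, which came to 35.8% ± 2.49 of the Cox7a group. Cox7a2, the general form of subunit VIIa, took 61.9% ± 2.61 of that group, and Cox7a2 over Cox7a2l was 1.59, 1.69 and 2.00 in the 3 mice.

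The c subunit of the ATP synthase rotor is made from 3 genes that encode the same mature protein with different import sequences. Atp5g3 gave 56.5% ± 0.577 of their summed FPKM, Atp5g1 22.5% ± 1.08 and Atp5g2 21.0% ± 1.20. Atp5g3 had 297, 344 and 332 FPKM in mouse 1, 216, 318 and 347 FPKM in mouse 2 and 418 and 497 FPKM in mouse 3, and it exceeded the other two in each of the 8 libraries. Atp5g1 had 130.4, 145 and 134 FPKM, 89.3, 125 and 121 FPKM, and 164 and 193 FPKM. Atp5g2 had 108, 117 and 116 FPKM, 76.5, 125 and 125 FPKM, and 175 and 187 FPKM. Atp5g1 over Atp5g2 was 1.20, 1.03 and 0.987 in the 3 mice, so that these 2 were not separated. When only the highest transcript of each gene was counted, the shares were 53.5% for Atp5g3, 17.2% for Atp5g1 and 29.3% for Atp5g2, which reverses the order of the last 2.

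The coding ends of the 3 c subunit genes are shown because they encode the same residues. Reads from stretches that genes share can be divided between them. They are the last 90 bases before and including the stop codon in GENCODE vM21 (GRCm38), within 1 exon each, and capitals mark the 24 positions at which the 3 genes are not all alike.
Atp5g1 (chr11:96073104-96073193, minus strand): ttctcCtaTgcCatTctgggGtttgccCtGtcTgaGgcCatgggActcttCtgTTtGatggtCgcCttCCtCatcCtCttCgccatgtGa
Atp5g2 (chr15:102663014-102663103, minus strand): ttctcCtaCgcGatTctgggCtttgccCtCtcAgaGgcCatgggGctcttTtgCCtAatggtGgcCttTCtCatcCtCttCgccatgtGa
Atp5g3 (chr2:73908593-73908682, minus strand): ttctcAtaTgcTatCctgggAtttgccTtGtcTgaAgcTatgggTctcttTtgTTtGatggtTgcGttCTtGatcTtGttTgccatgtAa
Over the whole coding sequence, Atp5g1 and Atp5g2 were 78.8% identical, Atp5g1 and Atp5g3 72.8% and Atp5g2 and Atp5g3 72.5%. The longest stretch shared without a mismatch by their transcripts was 21, 11 and 9 nt in the same order. The 9 pairs of general and other forms among Cox4, Cox6a, Cox6b, Cox7a, Cox7b, Cox8 and Ndufa4 were 64.7–71.9% identical, with shared stretches of at most 28 nt.

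The mice were then compared to describe how far these levels differ between the libraries of the 3 mice, which share a strain and age range. Each mouse has its own libraries, so differences between animals and between the preparations of their RNA and libraries cannot be told apart. That mouse 3 stands apart was known from earlier results of these data, so the contrast of mouse 3 with the mean of mice 1 and 2 is not an independent choice. In a moderated F-test by limma on log2(FPKM + 1), with Benjamini-Hochberg adjustment, 56 of 83 subunit genes differed between the mice, beside 25.5% of all 13001 genes tested. In the contrast of mouse 3, 66 of 83 subunit genes were higher, beside 20.4% of all genes, and 0 were lower, beside 17.5%. Both libraries of mouse 3 were above all 6 others for 72 of 83, beside 26.5% of all genes. The median log2 difference of mouse 3 was 0.77 over the subunit genes and 0.02 over all genes tested. Mice 1 and 2 did not differ in any subunit gene by limma, either at the adjusted threshold (1 of 13001 genes in all, 0.00769%) or at an unadjusted p under 0.05 (425 genes in all). A version of limma with a trended and robust variance also found 1 gene and 0 subunit genes.

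The higher level in mouse 3 was found in every complex. It was called in 31 of 37 genes of complex I, 3 of 4 of complex II, 7 of 8 of complex III, 12 of 17 tested of complex IV and 13 of 17 of complex V, with median log2 differences of 0.79, 0.55, 0.84, 0.86 and 0.72, beside 20.4% of all genes. With each library's trend on transcript length removed, 14, 1, 3, 5 and 5 genes of complexes I to V were called higher, beside 16.1% of all genes. Without library 2 of mouse 3, 11, 1, 3, 5 and 5 were, beside 5.95%. Accessory subunits of complex I were called in 27 of 29 and core subunits in 3 of 7, and with the length trend removed in 12 of 29 and 2 of 7. All 10 general subunits of complex IV were called, and 4 with the length trend removed. Among the 7 tissue forms tested, Ndufa4l2 included, Cox6a2 and Ndufa4l2 were called. The Ndufa4l2 call (adjusted p = 0.00641 by limma), at a mean of 2.16 FPKM, was lost with the length trend removed (adjusted p = 0.0799 by limma). Its log2 difference was 0.74, and 0.59 without library 2 of mouse 3. The Cox6a2 call (adjusted p = 0.0442 by limma) was lost with a pseudocount of 0.1, without a minimum, with the highest transcript, with libraries scaled to the same total, with the length trend removed and in 6 of the 8 fits that left out 1 library, so that its adjusted p ranged from 0.0183 to 0.961. The median coefficient of variation between the mice was 34.6% for the subunit genes, against 12.3% for all genes tested.

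The 5 genes with the largest range between mice, among those that differed, were Atp5e, Ndufa7, Ndufb9, Uqcr10 and Uqcrh. Atp5e, the epsilon subunit of the catalytic head, had 193, 239 and 209.5 FPKM in mouse 1, 123, 258 and 264 FPKM in mouse 2 and 539 and 738 FPKM in mouse 3. Its log2 difference was 1.59 (SE 0.28, adjusted p = 0.00459 by limma with Benjamini-Hochberg adjustment), and both mouse 3 libraries were far above the rest. Ndufa7, an accessory subunit of complex I, had 105, 102 and 104 FPKM, 63.3, 125 and 117 FPKM, and 223 and 305 FPKM. Ndufb9, another accessory subunit, had 177, 185 and 176 FPKM, 153, 188 and 193 FPKM, and 383 and 518 FPKM. The log2 difference was 1.37 (SE 0.24) for Ndufa7 and 1.32 (SE 0.13) for Ndufb9, with adjusted p = 0.00466 and 0.00146 by limma with Benjamini-Hochberg adjustment. Uqcr10 (1.29, SE 0.20) and Uqcrh (1.19, SE 0.15), whose values stand above, followed with adjusted p = 0.00333 and 0.00198 in the same test.

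For 3 of the 4 subunit genes with the longest listed transcripts no difference of mouse 3 was called. Sdha had a log2 difference of -0.10 (SE 0.07), Ndufs1, the largest core subunit of complex I, 0.03 (SE 0.07), and Atp5a1, the alpha subunit of the catalytic head, 0.12 (SE 0.10). None of these passed the limma test, with adjusted p = 0.261, 0.741 and 0.397 after Benjamini-Hochberg adjustment. With every library scaled to the same total, Sdha (-0.40, adjusted p = 0.00317) and Ndufs1 (-0.26, adjusted p = 0.0216) were called lower by limma. Their transcripts and that of Atp5a1 are 2859, 2665 and 2431 nt long in the table. Ndufa11, listed at 2661 nt, was higher in mouse 3 by 0.90 (adjusted p = 0.00897, limma with Benjamini-Hochberg adjustment). Atp5b, at 1879 nt, differed by 0.41 (SE 0.10, adjusted p = 0.0126, limma with Benjamini-Hochberg adjustment). With libraries scaled to the same total, Atp5b differed by 0.11 and was not called (adjusted p = 0.277 by limma). With each library's trend on transcript length removed, it differed by 0.26 and was called (adjusted p = 0.0132 by limma). Within the catalytic head, Atp5e was at 214, 215 and 638 FPKM in mice 1, 2 and 3, while Atp5a1 was at 292, 276 and 307 FPKM.

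The difference of mouse 3 moved with transcript length, for the subunit genes and for all genes. Spearman's rho between length and the log2 difference was -0.59 over the 83 subunit genes, which share the same 8 libraries. For messages under 500 nt the median difference was 0.94 over 16 subunit genes and 0.71 over all 215 genes of that length. From 500 to 699 nt it was 0.88 over 29 subunit genes and 0.69 over 285 genes, and from 700 to 999 nt 0.74 over 14 and 0.53 over 603. From 1000 to 1999 nt it was 0.57 over 20 subunit genes and 0.23 over 2865 genes, and from 2000 nt 0.07 over 4 and -0.08 over 9033. The subunit genes thus lay above all genes of like length in each class, by less than they lay above all genes together.

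With the trend of each library on transcript length removed, the median difference of the subunit genes fell to 0.15, 23 of 83 differed between the mice, beside 20.3% of all genes, and 28 were called higher by limma, beside 16.1%. Called lower was 1, beside 15.9%, namely Ndufa10 with a log2 difference of -0.23 (adjusted p = 0.0287 by limma with Benjamini-Hochberg adjustment). The largest differences that were left were Ndufa11 (0.88), Atp5e (0.72), Ndufb9 (0.66), Ndufa7 (0.61), Ndufs4 (0.58) and Cox4i1 (0.57), each still called higher. For Ndufa11 the removal used the table's 2661 nt, so its value rests on that length. With every library scaled to the same total, 56 subunit genes were higher, beside 8.31% of all genes, and 2 (Sdha and Ndufs1) were lower, beside 44.2%. This scaling moved the median difference of all genes from 0.02 to -0.23 and that of the subunit genes to 0.49.

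**Figure D4:**
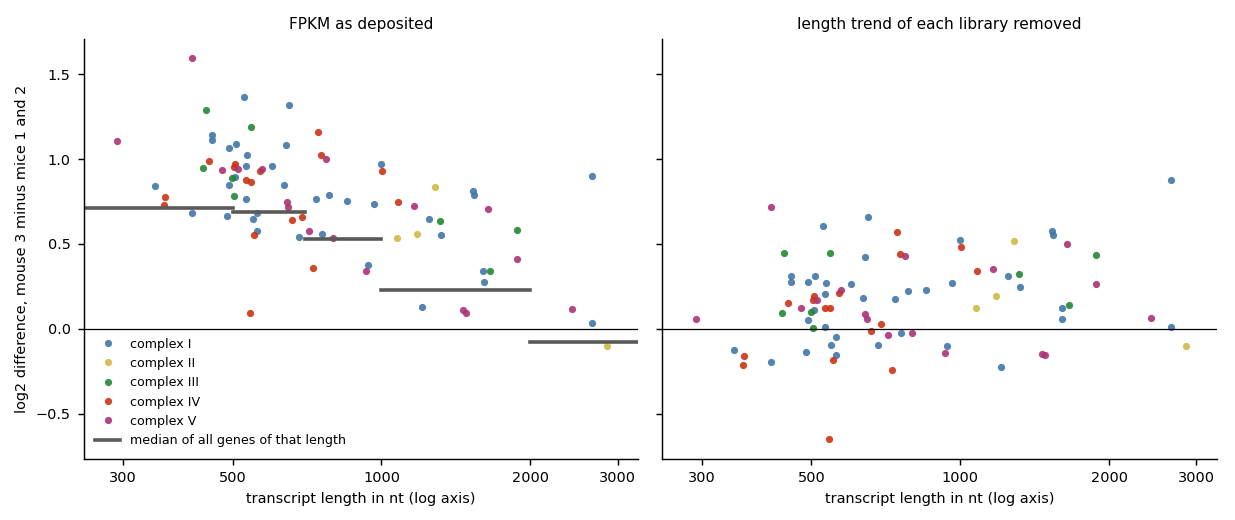
Log2 difference of mouse 3 from mice 1 and 2 for 83 subunit genes against transcript length (log axis), for FPKM as deposited (left) and with each library's trend on length removed (right). Colours mark the complexes, and grey bars on the left are the medians of all genes in 5 classes of length, from 0.71 under 500 nt to -0.08 from 2000 nt. The slope on the left is not seen on the right, where the median is 0.15.

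The number of subunit genes called depended on library 2 of mouse 3. For 77 of 83 subunit genes this library was above library 1 of the same mouse, beside 6608 of all 13001 genes. The median deviation of the subunit genes from the mean of all libraries was 0.78 in library 2 and 0.39 in library 1 on the log2 scale, beside 0.018 and 0.017 over all genes. Without library 2 the median difference was 0.59, against 0.77 with it, and 25 subunit genes were called higher, beside 5.95% of all genes, 0 were called lower, beside 5.49%, and 2 differed by the F-test, beside 0.969%. The lone library left for mouse 3 is then assumed to vary like those of the other mice. Library 1 of mouse 2, the library with the fewest bases read, stood at the other end with a median deviation of -0.57, beside -0.11 over all genes, and it was the lowest of the 8 for 74 of 83 subunit genes, beside 4788 of 13001 genes.

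Of the 84 genes, 69 have a single transcript in the table. Transcripts of 3 of the others were set side by side within the gene, a choice made after their values were seen, and the rest were not compared. Ndufv3, an accessory subunit of the NADH-oxidizing module, has a transcript of 487 nt and 1 of 1579 nt in the table. The short transcript was at 119, 115 and 189 FPKM in mice 1, 2 and 3 and the long transcript was at 7.46, 7.56 and 8.08 FPKM, and the short transcript made up 92.9–96.0% of the gene in the libraries. Atp5c1, the gamma subunit of the rotor shaft, has transcripts of 1165 nt and 1800 nt. The shorter was at 182, 174 and 298 FPKM and the longer at 1.29, 1.54 and 1.14 FPKM. Cox4i1, the general form of subunit IV, has transcripts of 669 nt and 744 nt, and both were highest in mouse 3, at 19.2, 15.9 and 37.0 FPKM and at 530.03, 513 and 1172 FPKM. Values of single transcripts are estimates that divide shared reads, and they were not tested.

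Cell type markers moved with the same contrast. Of the oligodendrocyte markers, Mbp was at 1253–1365 FPKM in mice 1 and 2 and at 2836 and 3495 FPKM in mouse 3. Mog was at 34.0–47.3 FPKM in mice 1 and 2 and at 51.7 and 63.0 FPKM in mouse 3, and both were called higher by limma. The summed FPKM of 3 astrocyte markers (Aqp4, Gja1 and Slc1a3) was 275–291 in mice 1 and 2 and 397 and 415 in mouse 3, and all 3 were called higher. Of the 3 neuronal markers, Syt1 and Rbfox3 were called lower and Snap25 was not called. Of 3 markers of parvalbumin interneurons, which fire fast, Pvalb was called higher and Kcnc1 lower. Hbb-bt of 5 blood markers, Cx3cr1 of 3 microglial markers and Kcnj8 and Rgs5 of 6 pericyte markers were called higher. Tnnt2, the only one of 4 heart markers with a mean above 1 FPKM, was called lower, and of 2 brown fat markers Cidea had a mean above 1 FPKM and was not called. Whether a different mix of cells has a part in the levels of the subunit genes was not tested.

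Other mitochondrial genes are read beside the 20.4% of all genes called higher and the 17.5% called lower. Of 47 assembly factors tested, which build the complexes but are not part of them, 23 were higher in mouse 3 and 1 was lower, with a median log2 difference of 0.35. Of 14 genes of the TCA cycle, 6 were higher and 0 lower, with a median of 0.16. With every library scaled to the same total, 1 TCA cycle gene was higher and 5 were lower, with a median of -0.13. Under that scaling 8.31% of all genes were higher and 44.2% lower. Of 77 genes of the mitochondrial ribosome, 53 were higher and 0 lower, with a median of 0.51. Of 5 genes that belong to the pathway but not to the symbols used (Ndufab1, Cyc1, Cycs, Usmg5 and Atpif1), all 5 were higher, and Usmg5, a small subunit of the ATP synthase, was the most abundant of them at 755 ± 330.3 FPKM. With each library's trend on transcript length removed, 17 genes of the mitochondrial ribosome were higher and 4 lower, with a median of 0.12. Of the assembly factors, 11 were then higher and 3 lower, with a median of 0.11. The TCA cycle stayed at 6 higher and 0 lower, and 2 genes outside the symbols were higher. Of all genes, 16.1% were then higher and 15.9% lower. Genes encoded in mitochondrial DNA were not analysed here. All these counts are of limma's moderated test with Benjamini-Hochberg adjustment over all genes.

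The regulators of mitochondrial biogenesis were called in both directions, beside 20.4% of all genes higher and 17.5% lower. Of 9 such genes, Esrra (0.42) and Tfam (0.31), a nuclear receptor and the factor that packages mitochondrial DNA, were higher in mouse 3. Ppargc1a (-0.38), a coactivator, and Gabpa (-0.28) and Gabpb1 (-0.20), the subunits of GABP, were lower. Ppargc1b, Nrf1, Tfb2m and Yy1 were not called. Tfam and Gabpb1 were each close to the threshold (adjusted p = 0.0487 by limma with Benjamini-Hochberg adjustment). Nrf1, whose motif is shown above, was at 3.56 ± 0.485 FPKM with a log2 difference of -0.28 (SE 0.13, adjusted p = 0.106 by limma with Benjamini-Hochberg adjustment). The median over the 9 genes was -0.20, and their median length was 3584 nt. With every library scaled to the same total, 0 were higher, beside 8.31% of all genes, and 6 lower, beside 44.2%.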

How the data were processed

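RNA from 3 whole brains was sequenced by the authors as mRNA libraries (Kapa mRNA HyperPrep) on a NextSeq500 instrument. The authors deposited FPKM for each RefSeq transcript in each library, with confidence bounds, and the coverage, a signal of reads per base that is not scaled by library size. The submitters' processing notes name TopHat, Cufflinks and mm10, and versions, strand setting and read length are not given in the sources used here. Deposited starts count from 0, and 1 was added. FPKM of the transcripts of a gene were summed, then averaged over the libraries of a mouse and over mice. Depth is coverage multiplied by length, and no counts were given, so no counting interval was computed. The table held 8 failed values in 2 genes, none of them subunit genes.

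The 13001 genes whose mean reached 1 FPKM were fitted on log2(FPKM + 1) with limma 3.58.1 in R 4.3.3, with 1 group per mouse, a moderated F-test and the contrast of mouse 3 with the mean of mice 1 and 2. P-values were adjusted by Benjamini-Hochberg over all these genes, with a threshold of 0.05. Fold changes on this scale understate the change of low genes. Python 3.11.15 with pandas 2.3.3 made the other values. Sequences came from RefSeq (GRCm38.p6) and GENCODE vM21, and identity is over aligned coding bases.

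The subunit genes, gene lists and tests were chosen with earlier results of these data known. Named genes were the 3 highest of each complex, all of complex II, all genes of the paralog groups, those under 1 FPKM and, of those that differed, the 5 whose mouse means spread most. Ndufs1, Atp5a1, Ndufa11, Ndufa10, Ndufs4, Ndufv3, Atp5c1, Ndufv1, Atp5s, Atp5sl and the genes listed by length were named after their values were seen. Alternatives were a pseudocount of 0.1, no minimum, a minimum of 5 FPKM, libraries scaled to the same total (TPM, in FPKM units), removal of each library's trend on transcript length (lowess, span 0.5), the highest transcript of a gene, a trended and robust variance, a replicate block and leaving out each library. Values of some single genes are not reported here.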

Additional observations from a re-analysis of the deposited data

How the results depend on the processing

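Of the main values recomputed, 378 stayed within their limits and 57 moved, among them the count of subunit genes called in mouse 3. Scaling to the same total gave 5634 genes that differed between the mice, 2 subunit genes lower in mouse 3 and a median difference of 0.49. Removing the length trend gave 23 subunit genes that differed, 28 higher, 1 lower and a median of 0.15. The difference was then above 0 in 61 of 83 subunit genes, against 82 before. Among those that turned were Cox4i2 to -0.24, Cox6a2 to -0.010, Cox6b2 to -0.18, Cox7a1 to -0.16, Cox7b2 to -0.65, Cox8b to -0.21, Ndufa3 to -0.12, Atp5g1 to -0.024, Atp5g3 to -0.036, Ndufv3 to -0.13 and Ndufa10 to -0.23. With scaling 75 were above 0, and Cox7b2 (-0.051), Ndufs1 (-0.26), Atp5a1 (-0.18), Ndufa10 (-0.17), Ndufv1 (-0.021), Atp5s (-0.17) and Atp5sl (-0.17) turned. Leaving out 1 library at a time, Cox7b2 ranged from -0.077 (without library 1 of mouse 1) to 0.27.

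Leaving out 1 library at a time gave 126 to 3873 genes that differed, 2 to 62 subunit genes that differed, 25 to 69 that were higher and a median of 0.59 to 1.00. Without library 1, 2 or 3 of mouse 1, 1909, 1785 and 1671 genes differed. The lowest values came without library 2 of mouse 3, and the highest median without library 1 of that mouse. Assembly factors ranged from 1 to 26 higher and 0 to 1 lower, TCA cycle genes from 2 to 6 higher, regulators from 0 to 3 higher and 1 to 4 lower, mitochondrial ribosome genes from 10 to 56 higher and the 5 pathway genes outside the symbols from 1 to 5 higher. The Cox7a1 share ranged from 2.04% to 2.54% and the Cox8b share from 0.233% to 0.335%.

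For the other lists, scaling gave 11 assembly factors higher and 6 lower, 1 TCA cycle gene higher and 5 lower, 0 regulators higher and 6 lower, 31 mitochondrial ribosome genes higher and 3 lower, and 2 pathway genes outside the symbols higher. Of all genes, 8.31% were higher and 44.2% lower with that scaling. Length removal gave 11 assembly factors higher and 3 lower, 17 mitochondrial ribosome genes higher and 4 lower, and 2 of the pathway genes outside the symbols higher. Of all genes, 16.1% were higher and 15.9% lower with that removal. A pseudocount of 0.1, no minimum and the highest transcript each gave 1 regulator higher, the highest transcript gave 1 lower, and no minimum gave 3 of the pathway genes outside the symbols. The cause was not tested. The complex IV median was 192 FPKM over all 18 genes and 428 FPKM without tissue forms and non-subunits. As a mean over all 18 genes it was 261 FPKM. The highest transcript gave shares of 0.666% for Cox6b2, 17.2% for Atp5g1, 29.3% for Atp5g2 and 53.5% for Atp5g3.

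Library numbers recur in each mouse but nothing says that they mark a shared batch. Deviations of same-numbered libraries correlated at 0.00276 to 0.107, not all over 0.1, so the numbers were not taken as a pairing. With a replicate block, 2995 genes and 68 subunit genes differed, 73 were higher, 0 lower, and the median was 0.82.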
